A study of Mus musculus with 8 samples.

Results

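Hypocretin (orexin) and melanin-concentrating hormone are neuropeptides of separate neuron populations of the lateral hypothalamus, and the genes described here are the 2 that encode their precursors, Hcrt and Pmch, with the receptor genes Hcrtr1, Hcrtr2 and Mchr1. These 5 genes were chosen by name from a table of 18983 genes, with their values in these libraries already known. All 5 were present and passed the filter on low counts that left 15186 genes for the comparison of diets. The libraries were made from poly(A) RNA of the central amygdala, the main output nucleus of the amygdala, which takes part in defensive behaviour and appetite, of 129SV mice aged 7 months. High fat diet had been given for 20 weeks to the mice of 4 libraries, and normal chow for 20 weeks to those of the other 4. The titles number the libraries 1, 2, 5 and 8 within each diet, and no label says what the number stands for. The labels do not say whether each library came from its own mouse, and the p-values therefore reflect variation among these libraries that may be technical. No genetic change or drug is named in the labels, and neither is the sex of the mice.

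Hypocretin neurons promote wakefulness and food seeking, and their loss causes narcolepsy. Both hypocretin peptides are cut from a single precursor and act on a pair of G protein-coupled receptors, HCRTR1 and HCRTR2, which raise calcium mainly through Gq and phospholipase C. Melanin-concentrating hormone promotes feeding and is active in sleep, and it acts in mice through MCHR1, a Gi-coupled receptor that sits in the primary cilium of neurons. The cell bodies of both populations lie in the lateral hypothalamus and the neighbouring zona incerta, and their axons reach the amygdala, where the receptors are made locally.

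Hcrt lies on chromosome 11 from 100761693 to 100762931 on the minus strand (mm10, Entrez gene 15171), and Pmch (110312) on chromosome 10 from 88091072 to 88092374 on the plus strand. Hcrtr1 (230777) lies on chromosome 4 from 130130217 to 130139594, Hcrtr2 (387285) on chromosome 9 from 76225880 to 76323623 and Mchr1 (207911) on chromosome 15 from 81235499 to 81238964. The promoters of the peptide genes are shown because these genes moved together across the libraries. Each runs from 250 bases before to 50 bases after the transcription start, in RefSeq's GRCm38.p6, and the capitals mark TATAAA, the core of a TATA box. The promoter of Hcrt is chr11:100762882-100763181 on the minus strand and that of Pmch is chr10:88090822-88091121 on the plus strand.
Hcrt: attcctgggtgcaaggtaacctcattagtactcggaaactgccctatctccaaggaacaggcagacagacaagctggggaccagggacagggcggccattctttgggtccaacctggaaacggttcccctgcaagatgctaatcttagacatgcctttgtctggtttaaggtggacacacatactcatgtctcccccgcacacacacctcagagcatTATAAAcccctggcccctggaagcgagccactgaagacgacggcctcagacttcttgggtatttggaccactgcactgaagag
Pmch: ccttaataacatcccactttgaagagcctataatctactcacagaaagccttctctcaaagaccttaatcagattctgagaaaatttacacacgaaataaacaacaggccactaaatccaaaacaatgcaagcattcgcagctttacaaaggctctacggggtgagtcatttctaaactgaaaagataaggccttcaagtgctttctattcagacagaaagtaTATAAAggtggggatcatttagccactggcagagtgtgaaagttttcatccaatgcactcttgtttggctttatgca
TATAAA was searched on both strands. It began 33 bases before the start of Hcrt and 27 bases before that of Pmch, once in each and on the strand of the gene. These letters were not in the 5 listed promoters of the receptor genes, of which Hcrtr1 has 3. Of 32851 promoters of this length, 13.6% held TATAAA on either strand. On the strand of the gene, 1.99% held it beginning from 40 to just over 20 bases before the start. A match describes the letters only.

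Library totals were 17451111 to 19562368 counts, so 3 counts, the limit that a count of 0 allows, came to 0.155 to 0.168 CPM. CPM is a count scaled to a common library size, and here the sizes were first adjusted by TMM, which corrects for differences in composition. The central amygdala markers Sst and Prkcd were detected in every library, at 223 to 463 and 11.0 to 273 CPM. Penk, Tac2, Nts and Crh, also central amygdala markers, were each lowest in high fat library 1, at 20.2, 4.70, 3.86 and 2.29 CPM. Their highest levels were 796, 75.2, 28.9 and 16.4 CPM, so the libraries were not alike in these markers. Prkcd, which thalamic neurons express too, was highest in chow libraries 5 and 8, at 273 and 58.4 CPM, and at most 25.9 CPM elsewhere. The thalamic genes Tnnt1 (35.5 and 8.35 CPM), Shox2 (33.0 and 9.67 CPM) and Ramp3 (44.4 and 12.4 CPM) were highest in the same libraries, and at most 4.76 CPM elsewhere. Libraries differed in markers of neighbouring tissue. Slc17a7, the glutamate transporter of cortical and basolateral neurons, ran from 81.8 CPM in chow library 8 to 1724 CPM in high fat library 1. Ttr, the transthyretin gene of choroid plexus, ran from 71.5 CPM in chow library 5 to 5794 CPM in chow library 1. In bulk tissue, fewer cells of a type and less RNA per cell cannot be told apart.

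The peptide genes were near the limit of detection in the 4 libraries numbered 1 and 2 and abundant in the 4 numbered 5 and 8, in both diets. Hcrt had 1, 2, 179 and 576 counts in high fat libraries 1, 2, 5 and 8, and 1, 5, 97 and 78 counts in the chow libraries of the same numbers. These counts correspond to 0.0560, 0.110, 9.74 and 31.6 CPM in the high fat libraries and to 0.0517, 0.276, 5.45 and 4.31 CPM in the chow libraries. Within a diet the levels thus lay in 2 separate ranges, while the ranges of the diets overlapped. The highest high fat library was 565-fold above the lowest (exact 95% counting interval 101 to 22346), and chow library 5 was 105-fold above chow library 1 (18.5 to 4200.2). Counting intervals cover counting error only, and each of these ratios rests on a single count in the lower library.

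Pmch followed the same division. It had 5.75, 10.72, 960.44 and 1418.6 estimated counts in high fat libraries 1, 2, 5 and 8, which were 0.336, 0.605, 52.2 and 77.9 CPM. In the chow libraries it had 12.46, 19.44, 988.33 and 426.7 estimated counts, or 0.621, 1.05, 55.5 and 23.6 CPM. The lowest library numbered 5 or 8, chow library 8, was 22.5-fold above chow library 2, the highest of those numbered 1 or 2 (14.2 to 37.8). Over all tested genes, 413 of 15186 (2.72%) were higher in all 4 libraries numbered 5 and 8 than in all 4 numbered 1 and 2. Hcrt and Pmch are among them, and Hcrtr1, Hcrtr2 and Mchr1 are not. This division was known when the genes were chosen and carries no test.

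**Figure D1:**
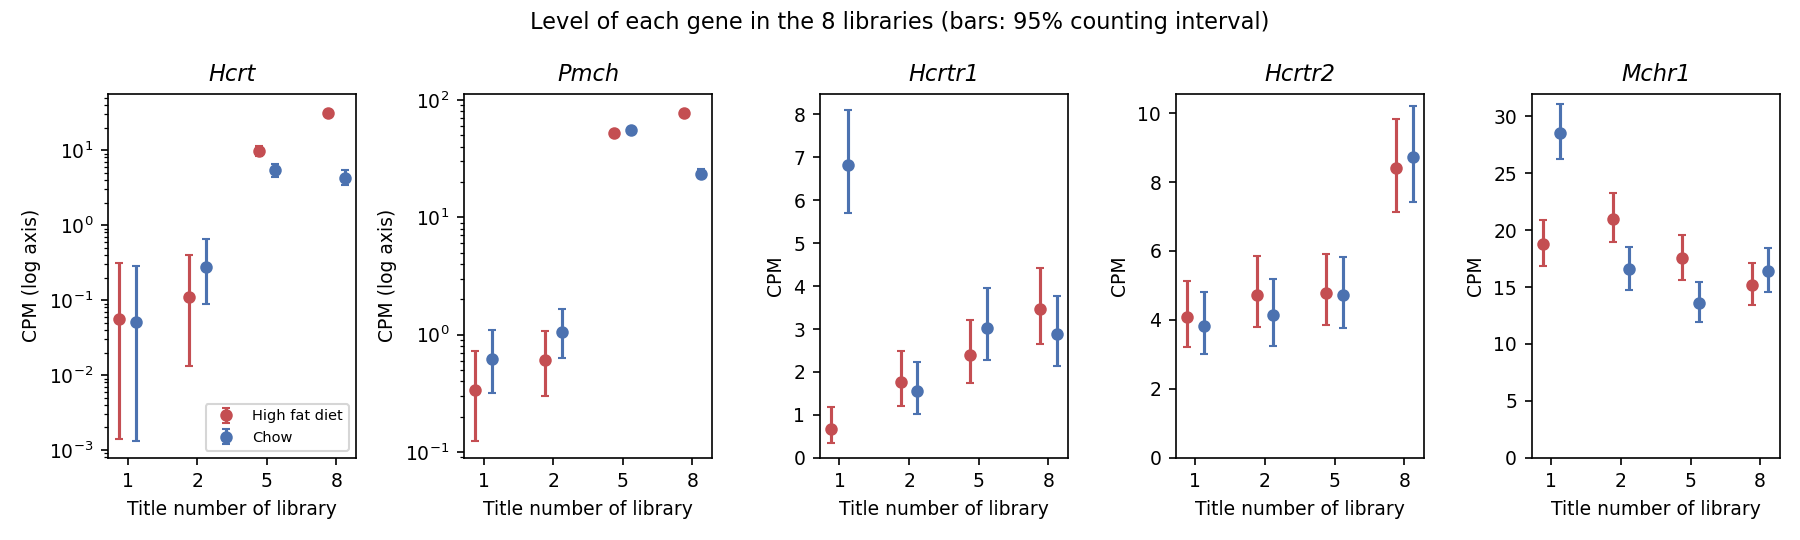
CPM of Hcrt, Pmch, Hcrtr1, Hcrtr2 and Mchr1 (vertical axes, logarithmic for the peptide genes) against the title number of the library, with red points for high fat diet and blue points for chow and bars for the exact 95% counting interval. Hcrt and Pmch are low in libraries 1 and 2 and high in libraries 5 and 8 of both diets; Hcrtr2 is highest in the libraries numbered 8, and Hcrtr1 and Mchr1 are highest in chow library 1.

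The values of Pmch in the low libraries depend on how reads were divided with a neighbour. Parpbp, a regulator of homologous recombination, runs from 88091398 to 88146969 on chromosome 10 on the opposite strand, and in GENCODE M21 its exons cover 435 of the 749 exon bases of Pmch. The estimated counts of Pmch were not whole in any of the 8 libraries (tolerance 0.011), and the sum of Pmch and Parpbp was whole in all 8, from 10 to 1437. Pmch took 57.5% and 76.6% of that sum in high fat libraries 1 and 2 and 56.6% and 74.8% in chow libraries 1 and 2. In the libraries numbered 5 and 8 it took 95.9% to 98.9%. Since the use of strand in the counting is not given in the sources used here, the few Pmch counts of libraries 1 and 2 cannot be told apart from Parpbp. Hcrt had whole counts in every library and no overlapping gene in that annotation.

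Levels of different genes were set beside each other per transcript length. The lengths were those implied by the deposited mean FPKM, 535 bases for Hcrt and 699 for Pmch. Those of Hcrtr1 and Hcrtr2 differed between the diets by 7.49% and 7.27%, so their levels per length are approximate. In the libraries numbered 5 and 8, Pmch was at 75.6 and 114 CPM per kilobase with high fat diet and at 79.3 and 35.0 with chow. Hcrt was next, at 18.4 and 60.5 with high fat diet and at 10.2 and 8.36 with chow, and Mchr1 followed in each, at 6.34 to 8.27. In chow library 8 Hcrt and Mchr1, at 8.36 and 7.95, were close to each other. In the libraries numbered 1 and 2 Mchr1 was the highest of the 5 genes, at 7.75 to 13.2 CPM per kilobase, and Hcrt the lowest, at 0.0956 to 0.517. Pmch was there at 0.434 to 1.54, and Hcrtr1 and Hcrtr2 lay at 0.286 to 3.03 and 1.08 to 1.34, so that the order of Pmch and these receptors changed from library to library.

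The proportion of the peptides also varied. Per length, the ratio of Hcrt to Pmch was 0.244 and 0.531 in high fat libraries 5 and 8 and 0.128 and 0.239 in chow libraries 5 and 8. High fat library 8 had the highest ratio, and high fat library 5 and chow library 8 were alike. The authors' deposited table gives mean TPM per diet, for Hcrt 49.96 in high fat diet against 12.1 in chow, and for Pmch 121 against 73.7. In the authors' deposited table the means of Mchr1 were 21.7 and 21.2, those of Hcrtr2 3.90 and 3.99, and those of Hcrtr1 2.51 and 3.65.

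**Figure D2:**
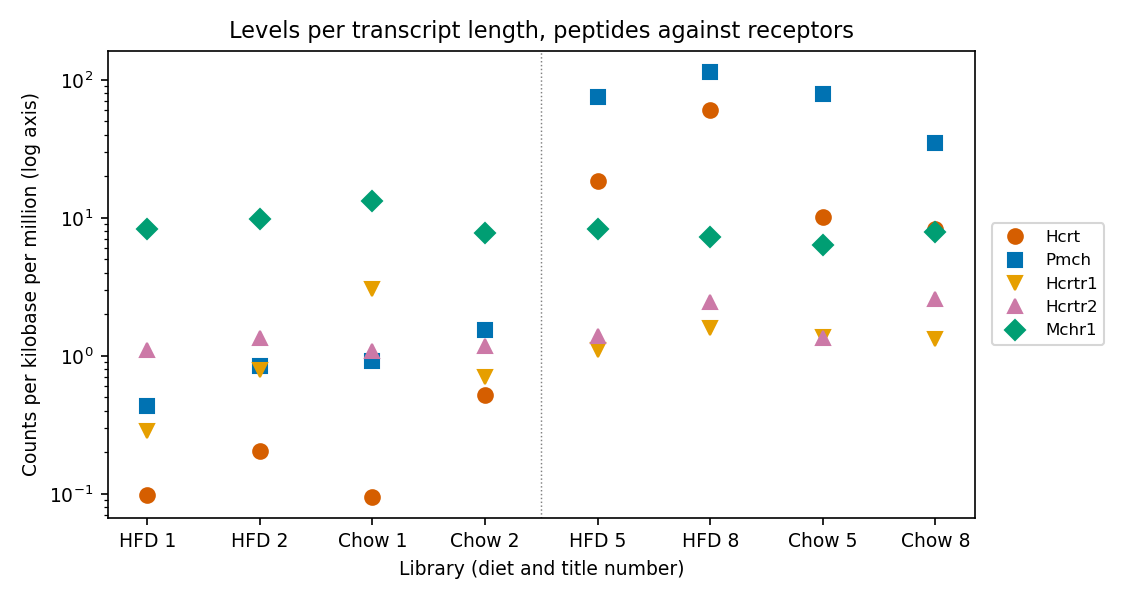
CPM per kilobase of implied transcript length (logarithmic vertical axis) of the 5 genes in each library, with libraries numbered 1 and 2 left of the dotted line and those numbered 5 and 8 right of it (HFD, high fat diet). Mchr1 leads on the left at 7.75 to 13.2, and Pmch leads on the right at 35.0 to 114 while Mchr1 stays between 6.34 and 8.27.

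Hcrtr1, the receptor that prefers hypocretin-1, was at 0.672, 1.76, 2.39 and 3.46 CPM in high fat libraries 1, 2, 5 and 8 and at 6.83, 1.55, 3.03 and 2.87 CPM in chow libraries 1, 2, 5 and 8. Chow library 1 stood highest, high fat library 1 lowest, and the diets overlapped. Chow library 1 was also the library with the highest Ttr, and the part of that in the level of Hcrtr1 was not tested. Estimated counts of Hcrtr1 were not whole in any library, so some of its reads were divided with other sequences.

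Hcrtr2, which binds both hypocretins, was at 4.09, 4.73, 4.79 and 8.40 CPM in high fat libraries 1, 2, 5 and 8 and at 3.83, 4.14, 4.72 and 8.73 CPM in the chow libraries of those numbers. The libraries numbered 8 stood above the other 6 in both diets. High fat library 8 was 2.05-fold above high fat library 1 (exact 95% counting interval 1.55 to 2.75), and chow library 8 was 2.28-fold above chow library 1 (1.72 to 3.05). The libraries numbered 8 did not differ between diets beyond counting error (ratio 0.961, interval 0.765 to 1.21). Of all 15186 tested genes, 519 (3.42%) were higher in both libraries numbered 8 than in the other 6.

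Mchr1, the receptor of melanin-concentrating hormone, varied least. It was at 18.8, 21.0, 17.5 and 15.2 CPM in high fat libraries 1, 2, 5 and 8 and at 28.6, 16.6, 13.6 and 16.4 CPM in chow libraries 1, 2, 5 and 8. Chow library 1 was the highest and chow library 5 the lowest, a 2.10-fold range over the 8 libraries, where Hcrtr1 ranged 10.2-fold and Hcrtr2 2.28-fold.

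The comparison of diets asked which genes differ between high fat diet and chow. With all genes fitted by edgeR's quasi-likelihood test, 0 of 15186 genes (0%) had a Benjamini-Hochberg adjusted p under 0.05, with a smallest adjusted p of 0.753, and 649 (4.27%) had an unadjusted p under 0.05. DESeq2 and limma-voom also called 0 genes (990 and 652 at an unadjusted p under 0.05), and without chow library 2 edgeR called 116, of which 92 were higher with high fat diet and 24 lower. None of the 5 genes was called in any of these fits or had an unadjusted p under 0.05 in the fit of all libraries. Hcrt averaged 10.4 ± 14.9 CPM in the 4 high fat libraries and 2.52 ± 2.76 CPM in the 4 chow libraries (± SD), a log2 fold of 2.04 ± 1.61 (SE). Pmch was at 32.8 ± 38.7 and 20.2 ± 25.9 CPM, a log2 fold of 0.70 ± 1.61. For both the SD within a diet exceeded the mean, and limma-voom, which works on log values, gave smaller folds of 0.72 ± 2.24 for Hcrt and 0.065 ± 2.15 for Pmch.

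Of the receptors, Hcrtr1 averaged 2.07 ± 1.17 CPM in the high fat and 3.57 ± 2.27 CPM in the chow libraries, a log2 fold of -0.78 ± 0.55 (SE). Hcrtr2 averaged 5.50 ± 1.96 and 5.36 ± 2.28 CPM, with 0.039 ± 0.34. Mchr1 was at 18.1 ± 2.43 and 18.8 ± 6.66 CPM, with -0.051 ± 0.23. The diets overlapped for all 5 genes, while 207 of the 15186 tested genes (1.36%) had diets that did not overlap. The estimated biological coefficient of variation was 150% for Hcrt and 144% for Pmch, and 54.3%, 35.7% and 25.5% for Hcrtr1, Hcrtr2 and Mchr1, beside 29.3% over all genes.

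The libraries numbered 5 and 8 and those numbered 1 and 2 were also fitted apart, a choice made after seeing the data. The split is the division of Hcrt and Pmch themselves. For these genes the fits are therefore a description and no test, and their SE leaves out the spread between the ranges. With numbers 5 and 8 only, 2 libraries a diet, the log2 fold was 2.07 ± 0.57 for Hcrt and 0.71 ± 0.42 for Pmch (SE), and 0 genes passed the adjusted threshold, with 2451 at an unadjusted p under 0.05. The adjusted p of Hcrt by edgeR was 0.218 there and 0.755 with all libraries, and it ran from 0.218 to 0.975 over its 16 alternatives. At number 5, Hcrt was 1.79-fold higher with high fat diet (exact 95% counting interval 1.39 to 2.31) and Pmch 0.942-fold (0.861 to 1.03). At number 8 the ratios of high fat diet to chow were 7.33 (5.78 to 9.41) and 3.30 (2.96 to 3.68). The difference between diets in the abundant libraries thus came mostly from the pair numbered 8, with 1 library on each side, and without high fat library 8 the fold of Hcrt over all the other libraries was 0.39 and that of Pmch -0.19. With numbers 1 and 2 only, Pmch was at -0.82 ± 0.69, Hcrtr1 at -1.79 ± 0.92, and Hcrt was under the filter.

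**Figure D3:**
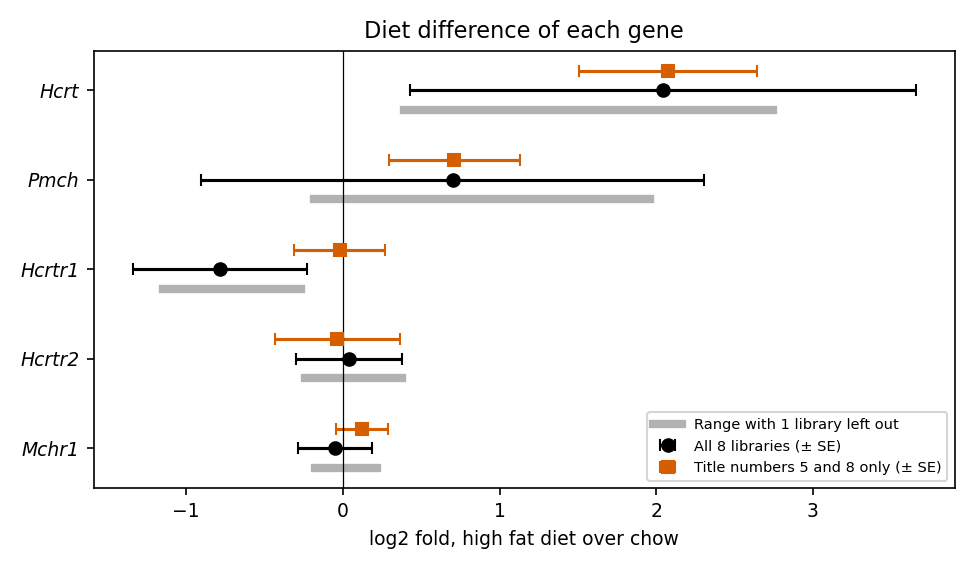
log2 fold of high fat diet over chow (horizontal axis) for each gene, with the estimate over 8 libraries and its SE in black, the estimate from libraries numbered 5 and 8 with its SE in orange, and the range over estimates with 1 library left out in grey. The orange estimates use a split that follows the levels of Hcrt and Pmch, so for these genes they carry no test. The black bars of Hcrt and Pmch, 2.04 ± 1.61 and 0.70 ± 1.61, are the widest, and the estimates of Hcrtr2 and Mchr1 lie at 0.039 and -0.051.

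Genes of the hypothalamus were set beside the peptide genes, library by library. Of the 8 tested genes on a list of hypothalamic transcription factors, Otp, Foxb1 and Lhx1 were higher in all 4 libraries numbered 5 and 8 than in the other 4, beside 2.72% of all genes. Otp, which specifies neuroendocrine and some lateral hypothalamic neurons and is also expressed in the medial amygdala, was at 3.16, 8.78, 2.08 and 8.79 CPM in high fat libraries 5 and 8 and chow libraries 5 and 8, and at 0.0560 to 1.76 CPM elsewhere. Foxb1, of the mammillary region, was at 0.979 to 2.41 CPM in the former and 0.112 to 0.776 CPM in the latter. Lhx1 was at 0.871 to 4.44 and 0.466 to 0.828 CPM. For Otp the lowest of the libraries numbered 5 and 8 was thus at 2.08 CPM and the highest of the others at 1.76 CPM, where for Hcrt these were 4.31 and 0.276 CPM. Nkx2-1, of the ventral hypothalamus and other basal forebrain, was at 14.5 and 14.8 CPM in chow libraries 5 and 8 but at 7.00 CPM in chow library 1 and 3.09 CPM in high fat library 5. The summed level of the list was 45.6, 64.3, 68.1 and 56.6 CPM in high fat libraries 5 and 8 and chow libraries 5 and 8 and 28.1 to 46.9 CPM elsewhere, so the sum overlapped. Slc17a6, the glutamate transporter of hypothalamic and thalamic neurons, was likewise at 45.4 to 120 CPM in the libraries numbered 5 and 8 and at 14.0 to 35.4 CPM elsewhere, highest in chow libraries 5 and 8, where the thalamic genes were highest.

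Some hypothalamic genes were highest in the libraries numbered 8. Of the 8 tested genes on the list of hypothalamic neuropeptides only Avp divided the libraries numbered 5 and 8 from the rest, and the summed level of the list, 51.6 to 107 CPM in those and 57.8 to 139 CPM in the others, overlapped. Avp, the vasopressin gene, was at 26.7 CPM in high fat library 8 and 11.1 CPM in chow library 8, and at 0.112 to 1.97 CPM in the other 6. Oxt, the oxytocin gene, had 263.29 and 118.18 estimated counts in the libraries numbered 8 and 0 to 18.74 in the others. Sim1, a transcription factor of the paraventricular nucleus and of part of the medial amygdala, had 48.03 and 37.27 counts there and 0 to 12.02 elsewhere. Avp, Oxt and Sim1 were singled out after their values were seen, Oxt and Sim1 were under the filter, and Oxt and Avp hold near-identical stretches that make the division of their reads uncertain. Of the 8 tested genes on the list of hypothalamic neuropeptides, Gal and Avp were higher in both libraries numbered 8 than in the other 6, beside 3.42% of all genes. Of the 8 tested hypothalamic transcription factors, Otp alone was. Over all 15 lists 10 of 158 tested genes were, with Scg5, Ebf2, Tacr3, Parpbp, Itpr3, Mrap2 and Sema3c of other lists among them. Gal was at 3.07 CPM in high fat library 8 and 4.26 CPM in chow library 8, and at 0.168 to 2.50 CPM elsewhere. Trh and Crh, peptide genes of the paraventricular nucleus, did not follow them. Trh, the thyrotropin-releasing hormone gene, was highest in chow library 2, at 18.3 CPM, with 15.9 and 14.7 CPM in the libraries numbered 8 of high fat diet and chow. Crh, which the central amygdala also expresses, was at 7.74 and 16.4 CPM there, and at 11.8 CPM in chow library 1. Hcrtr2 was highest in the libraries numbered 8, whereas Hcrt and Pmch were higher in chow library 5 than in chow library 8. Fezf1, of the ventromedial nucleus, had 60, 41 and 47 counts in high fat library 8, chow library 8 and chow library 1, and 0 to 17 elsewhere. Of the defining genes with few counts, Nr5a1, also of the ventromedial nucleus, had 2 and 8 counts in the libraries numbered 8 of high fat diet and chow and 0 to 1 in the others. Hmx3 had 6.03 and 7 counts there and 0 to 4 in the others. Hmx2 had 0 to 1 counts, Nkx2-4 0 to 7, Rax 0 to 12 and Agrp of the arcuate nucleus 2 to 15 over the 8 libraries. The part of hypothalamic tissue in the levels of Hcrt, Pmch and Hcrtr2 was not tested.

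**Figure D4:**
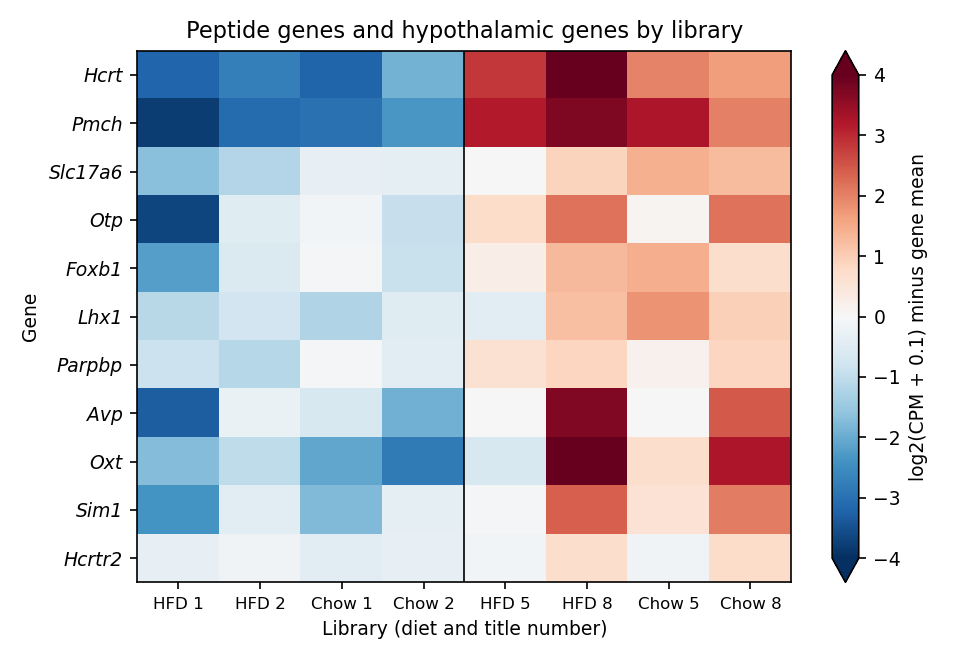
Colours give log2(CPM + 0.1) minus the mean of the gene over the 8 libraries, for Hcrt, Pmch, Hcrtr2 and genes singled out after their values were seen (rows), in libraries numbered 1 and 2 left of the line and 5 and 8 right of it (columns; HFD, high fat diet). Hcrt and Pmch are red in all 4 libraries on the right; Avp, Oxt, Sim1 and Hcrtr2 are highest in the libraries numbered 8.

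Genes that hypocretin or melanin-concentrating hormone neurons also express were described next. Of Pdyn, Nptx2, Lhx9, Igfbp3 and Ebf2, expressed in hypocretin neurons, 0 of 5 were higher in all libraries numbered 5 and 8, and of the list for melanin-concentrating hormone neurons 1 of 4 was, Parpbp. With 2.72% of all genes so divided, lists of this size show nothing about their members either way. Igfbp3, which encodes a secreted binding protein for insulin-like growth factors, ran from 30.0 to 40.2 CPM in the high fat libraries and from 9.73 to 25.8 CPM in the chow libraries. The diets thus did not overlap for Igfbp3, as for 1.36% of all tested genes. Its log2 fold of 1.16 ± 0.30 (SE) did not pass (adjusted p = 0.753 by edgeR). Lhx9, a transcription factor of hypocretin neurons that is also on the list of hypothalamic transcription factors, had 1.54 ± 0.71, and its diets did not overlap either. Lhx9 was at 29.4, 18.4, 20.0 and 17.3 CPM in high fat libraries 1, 2, 5 and 8. In the chow libraries of those numbers it was at 0.569, 15.9, 8.54 and 4.31 CPM. Igfbp3 and Lhx9 were thus both highest in high fat library 1, where Hcrt had 1 count, and neither followed the division of Hcrt. Qrfp, a peptide gene of a neighbouring population, had 1.72 to 6.44 counts and was under the filter. Cartpt, a peptide gene of many melanin-concentrating hormone neurons, was at 3.08, 12.3, 23.2 and 12.8 CPM in high fat libraries 1, 2, 5 and 8 and at 8.72 to 13.0 CPM with chow, with a log2 fold of 0.28 ± 0.48. On the same list, Tacr3, the neurokinin B receptor, ran from 7.29 to 20.5 CPM over the libraries and Nucb2, the nesfatin precursor, from 13.3 to 19.8 CPM. These genes are expressed in other neurons too, Pdyn and Cartpt in the amygdala among them. Parpbp, on the same list for its overlap with Pmch, had -0.16 ± 0.60. It was at 0.618 to 0.995 CPM in the libraries numbered 5 and 8 and at 0.165 to 0.517 CPM in the others, values that share reads with Pmch.

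The genes that process neuropeptides or carry the receptors' signals were compared between diets by list, with the median log2 fold over all genes at -0.012. Of the 158 tested genes of 15 lists, 0 passed the adjusted threshold and 24 had an unadjusted p under 0.05, beside 4.27% of all tested genes. In the lists of this paragraph these were 1 of 10 peptide processing, 3 of 15 Gq, 2 of 12 Gi, 1 of 16 cilium and 2 of 17 receptor genes. The thalamic, myelin and striatal lists held 4 of 11, 4 of 10 and 3 of 10. The lists were chosen with earlier results of these data known. Peptide processing and granule genes had 5 of 10 folds positive and a median of 0.11, with Cadps2 of granule release at 0.79 ± 0.35 (SE) and Cpe, the carboxypeptidase that trims peptides, at 0.28 ± 0.16. Gq and phospholipase C genes, downstream of the hypocretin receptors, had 9 of 15 positive and a median of 0.083, with the cation channel Trpc4 at 1.27 ± 0.51. Gi signalling genes and inward rectifiers, downstream of MCHR1, had 5 of 12 positive and a median of -0.018. Kcnj6, a channel opened by Gi-coupled receptors, had 1.07 ± 0.45 and Adcy5, an adenylyl cyclase that they inhibit, -0.65 ± 0.29. Neuronal primary cilium genes had 10 of 16 positive and a median of 0.13, with the ciliary receptors Sstr3 and Gpr161 at 1.11 ± 0.46 and 1.14 ± 0.51. Receptors for other feeding and arousal signals had 10 of 17 positive and a median of 0.22, with Npy2r at 1.05 ± 0.32 and Mc4r at 0.73 ± 0.30. Cadps2, Cpe, Trpc4, Kcnj6, Sstr3, Gpr161 and Npy2r were each highest in library 1 of high fat diet and library 2 of chow. Slc17a7 was highest in the same libraries of each diet, at 1724 and 1265 CPM, while Adcy5 and Mc4r were not. The part of the tissue mix in these folds was not tested.

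**Figure D5:**
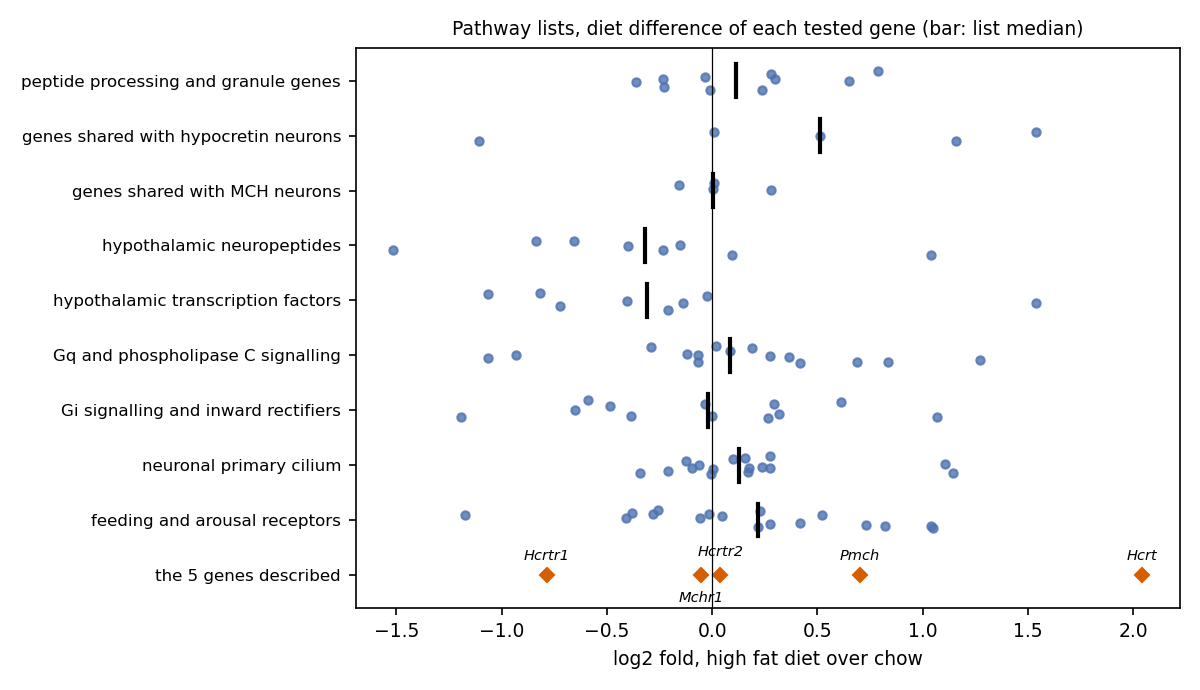
log2 fold of high fat diet over chow (horizontal axis) for each tested gene of the pathway lists (blue points; black bar, list median; vertical scatter within a list is for display) and for the 5 genes described (orange). List medians lie between -0.32 and 0.51. Hcrt is at 2.04 ± 1.61 (SE), and the largest fold of a listed gene shown is 1.54, for Lhx9. The lists of central amygdala, cortical, striatal, thalamic, choroid plexus and myelin genes are not shown, and they hold folds farther out, such as -4.18 for Shox2.

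Lists of neighbouring tissue and other cell types were counted in the same way, since their levels differ between libraries. Hypothalamic neuropeptides had 2 of 8 folds positive and a median of -0.32, with Pomc at -0.84 ± 0.39 (SE) and Hdc, of histamine neurons, at -1.52 ± 0.82. Hypothalamic transcription factors had 1 of 8 positive and a median of -0.31, with Nkx2-2 at -0.82 ± 0.37. Central amygdala neuron types had 3 of 13 positive and a median of -1.05, with Prkcd at -2.54 ± 0.81 and Meis2 at -1.05 ± 0.37. Cortical and basolateral excitatory genes had 11 of 12 positive and a median of 0.90, with Nptx1 and Emx2 at 1.39 ± 0.56 and 0.76 ± 0.37. Striatal spiny projection neuron genes had 0 of 10 positive and a median of -1.62, with Scn4b and Pde10a at -2.12 ± 0.79 and -0.90 ± 0.34. Thalamic and zona incerta genes had 2 of 11 positive and a median of -1.03, with Tnnt1 and Ramp3 at -3.62 ± 1.02 and -2.36 ± 0.73. Choroid plexus and ependymal genes had 0 of 9 positive and a median of -1.32, with Dynlrb2 and Foxj1 at -2.03 ± 0.91 and -1.60 ± 0.73. Myelin genes had 0 of 10 positive and a median of -1.03, with Opalin and Mog at -1.23 ± 0.51 and -1.16 ± 0.48. Slc17a6, Avp, Otp, Foxb1 and Lhx1 were the only tested genes of these 8 lists with numbers 5 and 8 all above 1 and 2. They were 1 of 11 thalamic and zona incerta genes, 1 of 8 hypothalamic neuropeptides and 3 of 8 hypothalamic transcription factors. Over all 15 lists, 6 of 158 tested genes were so divided, beside 2.72% of all tested genes. Whether the lists differ from that share was not tested.

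The genes whose log2 CPM followed each of the 5 most closely were taken from 12237 genes with a mean of at least 5 CPM, by Pearson's r over the 8 libraries, as a description. For Pmch they were Exosc8, a subunit of the RNA exosome (r = 0.96), Snx22, a sorting nexin (0.94), and Gucy2e, a membrane guanylyl cyclase (0.93). For Hcrt they were Atg10, an autophagy enzyme, Exosc8 and Snx22 (0.94, 0.94 and 0.93). Without the 2 libraries farthest from the median of the gene these were 0.99, 0.91 and 0.98 for Pmch and 0.91, 0.97 and 0.88 for Hcrt. The libraries of Hcrt and Pmch lie in 2 separate ranges, so r compares these ranges more than levels within them. The genes named moved over a smaller range, Exosc8 from 8.40 to 11.9 CPM. Mchr1 was followed by Ephx2, an epoxide hydrolase, Ptms and Xrcc1 (0.98, 0.97 and 0.97), and Hcrtr1 by Tmsb10, Abtb1 and Rps28 (0.98 each). With the farthest 2 libraries left out in the same way, chow library 1 among them for both genes, the values were 0.91, 0.87 and 0.89 for Mchr1 and 0.91, 0.96 and 0.92 for Hcrtr1. Hcrtr2 was followed by Tbca, Mppe1 and Tmx1 (0.94, 0.92 and 0.92), and without both libraries numbered 8 these were 0.87, 0.56 and 0.73.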

How the data were processed

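Poly(A) RNA of 8 central amygdala libraries was sequenced from 1 end on a BGI instrument, per the labels' protocols. The authors deposited estimated read counts per gene and library, and the mean expected count, FPKM and TPM of each diet, per the file headers. The submitters' processing notes list Bowtie2 2.2.5, RSEM 1.2.8 and mm10. Annotation and strandedness: not given in the sources used here.

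Counts were rounded, genes kept by filterByExpr and libraries scaled by TMM. High fat diet was set against chow by the quasi-likelihood test of edgeR 4.0.16 (two-sided, no covariate, R 4.3.3), adjusted by Benjamini-Hochberg over 15186 genes, with 0.05 as the threshold; it was tested on simulated data. The SE is the log2 fold over the root of F. log2 CPM used a prior count of 2. Level per length is CPM without TMM scaling over the length implied by the authors' deposited FPKM means. Counting intervals are exact and cover counting error only. Coordinates and promoters are RefSeq's for GRCm38.p6, the build of mm10, matched by gene ID for 5 of 5 genes.

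The 5 genes and 15 lists (169 genes, 158 tested) were chosen with earlier results of these data known. Named genes are the 5, the 3 most alike for each, and the 2 list genes with the smallest p, with Slc17a7, Ttr, Prkcd and Sst; others were chosen after seeing values, and 1 gene that the rule names is not reported here. Alternatives were RLE and upper-quartile factors, a filter at 1 count in all, a filter at a mean of 50 counts, the title number as a block, DESeq2 1.42.0, limma-voom (limma 3.58.1), each library left out and, added after seeing the data, numbers 5 and 8 only and 1 and 2 only.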

Additional observations from a re-analysis of the deposited data

Results flagged for a closer look

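A library that stood apart from the other 3 of its diet was looked for in each named gene, and chance flags about 1 in 20 groups. Of the 5 genes described, this held for Hcrtr2, at 8.40 CPM in high fat library 8; the chow library of the same number, at 8.73 CPM, did not reach the limit. Among the other genes, high fat library 8 stood apart in Avp at 26.7 CPM, Lhx1 at 2.85 CPM, Mppe1 at 23.8 CPM and Xrcc1 at 24.1 CPM. For Xrcc1 this was a low value, with 26.2 to 26.6 CPM in the other high fat libraries. Every other flagged value was the highest of its diet. Chow library 8 stood apart in Avp at 11.1 CPM and Otp at 8.79 CPM. High fat library 1 stood apart in Cadps2 at 145 CPM, Trpc4 at 78.6 CPM and Gpr161 at 105 CPM. Chow library 2 stood apart in Slc17a7 at 1265 CPM, Nptx1 at 373 CPM, Kcnj6 at 139 CPM, Cadps2 at 114 CPM, Gpr161 at 60.2 CPM, Trpc4 at 49.4 CPM and Sstr3 at 31.1 CPM. Chow library 1 stood apart in Foxj1 at 121 CPM, Dynlrb2 at 19.1 CPM, Hdc at 18.9 CPM and Pomc at 2.07 CPM, and chow library 5 in Prkcd at 273 CPM. In all, 22 of the 110 groups tested were flagged. Many of these genes were named for their values in these same libraries, and all groups share the libraries. The count therefore cannot be set against the 1 in 20.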

How the results depend on the processing

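No alternative brought any of the 5 genes past the threshold, and edgeR called 0 genes in each, as did DESeq2 and limma-voom (990 and 652 genes at an unadjusted p under 0.05), except that leaving out each library gave 0 to 116 genes, with 116 (92 higher, 24 lower) without chow library 2. Over the alternatives, 77 to 2972 genes had an unadjusted p under 0.05. With 1 library left out the log2 fold ran from 0.39 to 2.75 for Hcrt, from -0.19 to 1.96 for Pmch, from -1.15 to -0.27 for Hcrtr1, from -0.24 to 0.38 for Hcrtr2 and from -0.18 to 0.22 for Mchr1. The fold of Pmch turned negative without high fat library 8. That of Hcrtr2 turned negative without high fat library 8 or chow library 1, 2 or 5, and that of Mchr1 turned positive without high fat library 8 or chow library 1. With title numbers 5 and 8 only, Hcrtr2 turned to -0.036 and Mchr1 to 0.12, and with numbers 1 and 2 only Pmch turned to -0.82; the cause was not tested. Limma-voom gave 0.72 for Hcrt and 0.065 for Pmch. Fitted with the title number as a replicate block, the log2 folds were 1.33 ± 0.66 for Hcrt, 0.30 ± 0.48 for Pmch, -0.68 ± 0.66 for Hcrtr1, 0.061 ± 0.18 for Hcrtr2 and -0.0015 ± 0.21 for Mchr1, with 0 genes called and 572 at an unadjusted p under 0.05. The correlation of deviations from the diet means between libraries of the same number was 0.013, -0.043, 0.035 and 0.39 for numbers 1, 2, 5 and 8. Whether the number marks a pair cannot be told from these values, since other differences between libraries enter them too. For numbers 1, 2 and 5 there was little likeness between the diets over all genes, and not every library correlated best with its own number. The libraries numbered 8 did, and theirs was the highest correlation of any high fat library with any chow library. Hcrt could not be fitted with numbers 1 and 2 only, being under the filter.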
